A study of Mus musculus with 6 samples.

Results

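The genes described here are 10 that serve the fat cell and the storage of fat: Adipoq, Cfd, Plin1, Fabp4, Retn, Thrsp, Cidec, Lpl, Lipe and Pnpla2. They were taken from a list of names and read from every probe set that the platform annotation assigns to one of them alone. Such probe sets were listed for 8 of the 10, out of 18194 genes in all, and Cfd and Plin1 were not analysed here. The 8 genes had 16 probe sets, and each gene is led by the one with the highest mean over the arrays. All values are log2 expression levels from 6 arrays, 1 per mouse. The mice were C57BL/6, aged 6 to 8 weeks, and every one carried the floxed Pparg gene on both chromosomes and drank 2.5% dextran sodium sulfate (DSS), a polymer that injures the colonic lining, with colon taken on day 7. The 3 deficient mice were PPAR g fl/fl; Lysozyme M cre+, and the 3 control littermates were PPAR g fl/fl; Lysozyme M cre-. Lysozyme M drives Cre in macrophages and neutrophils, so fat cells are not among the cells in which the design deletes Pparg. No group went without DSS or without floxed alleles, and Cre was present in the deficient group alone.

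Fat cells hold triglyceride in a droplet whose surface is guarded by coat proteins, and they release fatty acids from it through a chain of lipases. The nuclear receptor PPAR gamma is the master regulator of this cell type and switches on most of the genes described here. In the bowel, fat cells sit in the mesenteric fat along the gut wall, while macrophages and capillary endothelium also make some of these proteins, Fabp4 and Lpl above all. In a whole-tissue sample, fewer cells of a type and less RNA per cell cannot be told apart.

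Start-site windows from RefSeq (build GRCm38.p6) were matched for 6 of the 8 genes, and 3 are shown because they belong to members with some of the larger differences below and hold one of the searched motifs. Each runs from 250 bases before to 50 bases after a transcription start, with motif matches in capitals.
Adipoq, chr16:23146286-23146585, plus strand: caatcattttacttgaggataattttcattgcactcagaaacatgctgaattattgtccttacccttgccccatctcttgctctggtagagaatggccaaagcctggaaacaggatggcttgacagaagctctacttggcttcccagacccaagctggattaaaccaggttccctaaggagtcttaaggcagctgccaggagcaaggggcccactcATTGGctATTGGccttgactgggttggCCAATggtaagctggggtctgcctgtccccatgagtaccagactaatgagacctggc
Thrsp, chr7:97417501-97417800, minus strand: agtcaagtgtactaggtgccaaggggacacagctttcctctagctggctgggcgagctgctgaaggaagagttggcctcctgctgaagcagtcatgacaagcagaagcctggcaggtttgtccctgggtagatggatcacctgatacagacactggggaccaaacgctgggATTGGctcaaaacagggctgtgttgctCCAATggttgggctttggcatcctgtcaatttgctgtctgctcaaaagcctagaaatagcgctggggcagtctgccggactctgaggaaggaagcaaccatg
Cidec, chr6:113434715-113435014, minus strand: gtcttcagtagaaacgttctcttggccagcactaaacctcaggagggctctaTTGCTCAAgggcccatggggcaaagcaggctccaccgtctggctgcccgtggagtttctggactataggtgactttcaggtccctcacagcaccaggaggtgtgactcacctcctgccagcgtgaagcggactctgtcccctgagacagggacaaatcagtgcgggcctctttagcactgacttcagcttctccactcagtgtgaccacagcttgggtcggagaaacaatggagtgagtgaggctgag
The motifs searched on both strands were the TATA box TATAAA, the CCAAT box CCAAT, the C/EBP-type site TTGCNNAA and the nuclear receptor half-site AGGTCA. Adipoq held 3 CCAAT matches, from 34 to 7 bases before the start, and Thrsp held 2, at 79 and 52 bases before it. Cidec held 1 C/EBP-type match in the window shown, and its other window held no match to any of the motifs. Over all 8 windows of the 6 genes, 2 held a CCAAT match and 1 the C/EBP-type site. Among 32851 windows of the same length, 37.4% held a CCAAT match, 10.8% the C/EBP-type site, 13.6% TATAAA and 16.3% AGGTCA. No window of the 6 genes held TATAAA or AGGTCA, which says only that these letters are not in these windows.

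The arrays had similar ranges and 2 kinds of tissue profile. Array medians ran from 3.02 to 3.10, and values above log2 4 made up 41.4% to 42.7% of probe sets. Control replicate 1 and deficient replicate 3 carried small intestine genes: Apoa1, an apolipoprotein of absorptive cells, was at 15.46 and 15.23 there and at 3.82 to 7.38 on the other 4 arrays. Car1, a colonocyte enzyme, was at 2.83 and 7.02 against 13.60 to 15.32. Each group held 1 such array, so differences are also given for the other 4 arrays and between these 2. Xist, which silences 1 X chromosome in female cells, was at 12.11 on control replicate 2 and at 2.25 on the rest. For Pparg itself the log2 difference, deficient minus control, was -1.19 (SE 1.73) with overlapping groups, at 5.28, 9.91 and 9.54 in control and 8.77, 8.23 and 4.15 in deficient samples. On the 4 arrays without small intestine genes it was -1.22 with separate groups of 2 (18.4% of all genes were separate and lower there). Between the 2 arrays with them it was -1.13. The fat cell label was borne out by part of its other markers: Car3, a carbonic anhydrase of fat and muscle, stood at 11.62 to 14.21 and Plin4, a droplet coat protein, at 6.28 to 7.58. Lep, the fat cell hormone leptin, lay between 2.25 and 2.36 on all 6 arrays, at the lowest values the arrays give. Of 19 such further fat cell genes with a probe set, 6 missed the filter on low values. Beside Lep these included Cidea, at 2.25 to 3.07, and Mest, at 3.17 to 3.98.

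All 8 genes had a lower mean in the deficient colon, with log2 differences from -4.25 to -0.55 and a median of -1.35. None passed the test in limma, with Benjamini-Hochberg adjusted p from 0.659 to 0.746. Over all 10491 genes tested none passed either (0.0%), the least adjusted p being 0.536. Before adjustment 783 genes (7.46%) had p under 0.05 in limma. Of these 248 were lower (2.36% of all genes), and 5 of the 8 fat storage genes were among them. Groups did not overlap, with every deficient sample under every control sample, for 6 of the 8, against 4.15% of all genes tested. A lower mean by itself was found for 43.0% of all genes, whose median difference was 0.06. All 8 passed the filter on low values and lay above log2 4 on all 3 control arrays, and 6 did so on all 3 deficient arrays. All 11 member probe sets that passed the filter had a lower deficient mean, as did 44.5% of all probe sets tested.

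**Figure D1:**
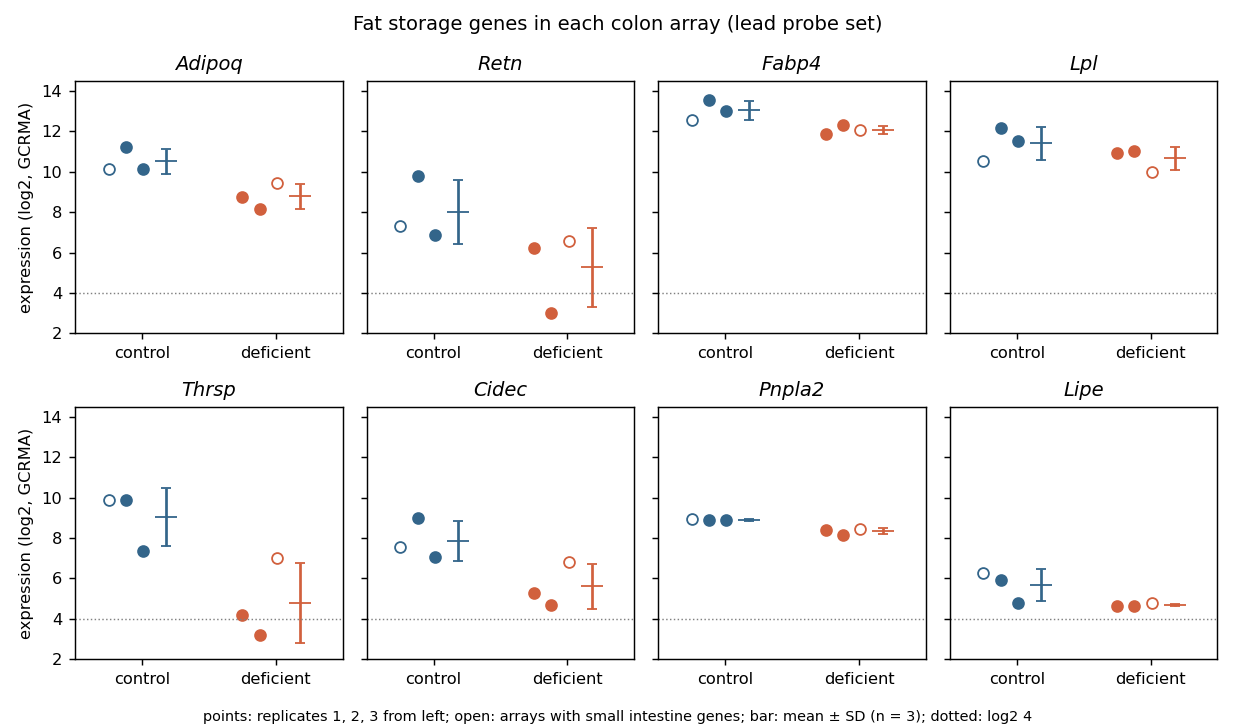
Log2 expression (vertical axis) of the lead probe set of 8 fat storage genes on 3 control and 3 deficient arrays. Points are single mice with replicates 1 to 3 from left to right, open points are the 2 arrays with small intestine genes, bars give mean ± SD (n = 3) and the dotted line is log2 4. Groups are separate for 6 genes and overlap for Lpl and Lipe.

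The adipokines, proteins that fat cells secrete as hormones, were lower in every deficient sample. Adipoq encodes adiponectin, which raises insulin sensitivity and comes almost wholly from fat cells. Its single probe set (1422651_at) read 10.15, 11.24 and 10.16 in control and 8.75, 8.16 and 9.43 in deficient samples. The lowest control value thus lay above the highest deficient one, and the highest deficient value came from the array with small intestine genes. The means were 10.52 ± 0.62 and 8.78 ± 0.64 (SD, n = 3 each), 3.33-fold apart. The log2 difference of -1.74 had a standard error of 0.45, a 95% interval from -2.84 to -0.63, an unadjusted p of 0.00861 and a limma adjusted p of 0.659.

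Retn encodes resistin, a hormone that in the mouse is made by fat cells. Its probe set (1449182_at) read 7.31, 9.81 and 6.86 in control and 6.23, 2.99 and 6.57 in deficient samples. The groups did not overlap, but control replicate 3 and deficient replicate 3 were only a little apart, and most of the spread came from control replicate 2 at the top and deficient replicate 2 at the bottom. The difference was -2.73 (SE 1.22) with a limma adjusted p of 0.685, and its 95% interval from -5.73 to 0.27 included 0. It was -1.59 without deficient replicate 2 and -1.82 without control replicate 2, and -1.51 with array weights. With values under 4 set to 4, since deficient replicate 2 lay near the lowest values, it was -2.39.

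The genes of fatty acid entry and transport differed by less than 1 log2 unit on their lead probe sets. Fabp4 carries fatty acids inside fat cells, macrophages and capillary endothelium. The lead probe set (1451263_a_at) read 12.58, 13.55 and 12.99 in control and 11.86, 12.30 and 12.05 in deficient samples. All deficient values lay under all control values, the nearest pair being control replicate 1 and deficient replicate 2. The difference was -0.97 (SE 0.29), or 1.96-fold, with a limma adjusted p of 0.659. A second Fabp4 probe set past the filter (1417023_a_at) gave -1.07 (SE 0.28) with separate groups. Another (1424155_at) missed the filter, at 3.52, 5.09 and 3.77 against 2.98, 3.26 and 2.61, and the last (1425809_at) lay between 2.32 and 3.07.

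Lpl encodes lipoprotein lipase, which frees fatty acids from circulating lipoproteins at the capillary wall and is made by fat cells, muscle and macrophages. Its lead probe set (1415904_at) read 10.55, 12.18 and 11.53 in control and 10.95, 11.04 and 10.01 in deficient samples. The groups overlapped, because control replicate 1 lay under 2 of the deficient samples. The 2 arrays with small intestine genes gave the lowest value of each group. The difference was -0.76 (SE 0.50) with a limma adjusted p of 0.746, the largest p of the 8 genes. It ranged from -1.19 without control replicate 1 to -0.38 without control replicate 2. The second Lpl probe set (1431056_a_at) also overlapped, with 8.08, 10.01 and 9.27 against 8.24, 8.23 and 7.05, a difference of -1.28 (SE 0.58).

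Of all members, Thrsp, a small nuclear protein that accompanies fatty acid synthesis in fat and liver, had the largest difference. Its lead probe set (1424737_at) read 9.88, 9.87 and 7.36 in control and 4.19, 3.17 and 7.00 in deficient samples. Deficient replicate 3 came close to control replicate 3, while deficient replicate 1 lay just above log2 4 and deficient replicate 2 under it. The difference of -4.25 (SE 1.18) had a 95% interval from -7.16 to -1.35 and a limma adjusted p of 0.659. It ranged from -5.36 without deficient replicate 3 to -3.45 without deficient replicate 2, and was -3.98 with values under 4 set to 4. On the second probe set past the filter (1422973_a_at) the samples read 8.70, 9.34 and 6.47 against 4.88, 4.71 and 6.50, so control replicate 3 and deficient replicate 3 met and the groups overlapped, with a difference of -2.80 (SE 0.87). The remaining one (1444166_at) read 2.46 on 5 arrays and 3.33 on deficient replicate 3, and missed the filter.

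Cidec coats the fat droplet and lets small droplets merge into the single large one of white fat cells. Its probe set (1452260_at) read 7.56, 8.97 and 7.06 in control and 5.29, 4.69 and 6.83 in deficient samples. The groups were separate by a narrow margin between control replicate 3 and deficient replicate 3. The difference was -2.26 (SE 0.72), or 4.78-fold, with a 95% interval from -4.04 to -0.48 and a limma adjusted p of 0.659.

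Both lipases that empty the droplet also differed by less than 1 log2 unit, and Pnpla2 had the smallest difference and the smallest standard error of the 8 genes. Pnpla2 encodes adipose triglyceride lipase, which takes the first fatty acid off stored triglyceride and works in many tissues besides fat. The lead probe set (1428143_a_at) read 8.94, 8.88 and 8.87 in control and 8.40, 8.17 and 8.46 in deficient samples. The groups did not overlap, and the highest value of each came from its array with small intestine genes. The difference of -0.55 (SE 0.15), or 1.46-fold, had a 95% interval from -0.93 to -0.17 and a limma adjusted p of 0.659. The other Pnpla2 probe set (1428591_at) lay between 2.46 and 2.79 and missed the filter.

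Lipe encodes hormone-sensitive lipase, which acts on the diglyceride that Pnpla2 leaves. Its lead probe set (1422820_at) read 6.28, 5.93 and 4.75 in control and 4.65, 4.65 and 4.75 in deficient samples. Control replicate 3 and deficient replicate 3 held the same deposited value to every digit, as did deficient replicates 1 and 2, so the low arrays of this probe set had no resolvable order. The difference was -0.97 (SE 0.41) with a limma adjusted p of 0.673 and overlapping groups, and it rested on control replicates 1 and 2. It ranged from -1.42 without control replicate 3 to -0.66 without control replicate 1, and was -0.54 with array weights. The second Lipe probe set (1432180_at) lay between 2.32 and 2.58 on all arrays.

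**Figure D2:**
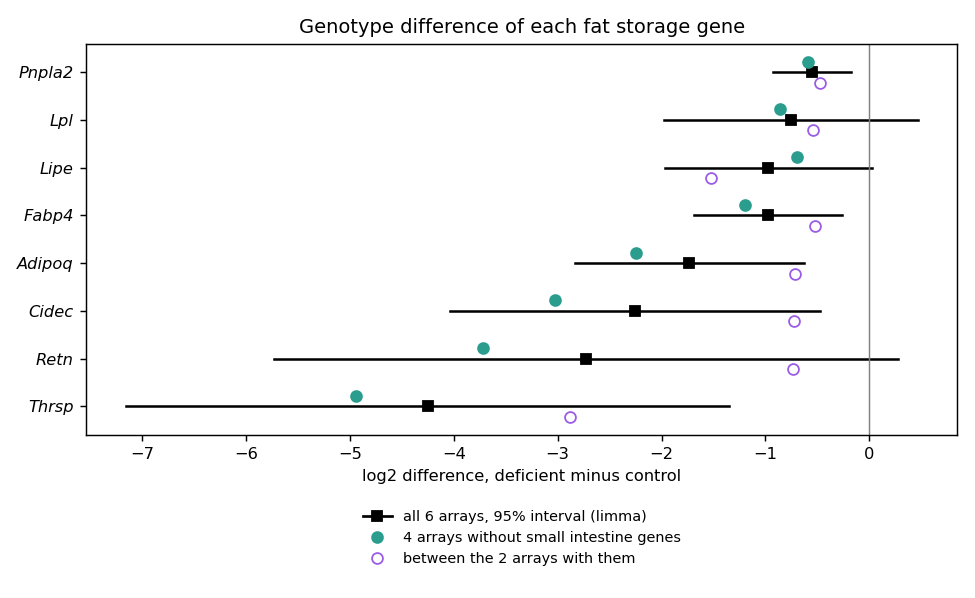
Log2 difference, deficient minus control (horizontal axis), of each fat storage gene. Squares with lines are all 6 arrays with the 95% limma interval, filled circles the 4 arrays without small intestine genes, and open circles the single difference between the 2 arrays with them. Every point lies under 0, and the intervals of Retn, Lpl and Lipe include 0.

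The direction was the same in both tissue profiles. With the 2 arrays that carry small intestine genes left out, the median of the 8 genes was -1.72, against 0.08 for all genes. All 8 were lower there (41.6% of all genes), each with separate groups of 2 (18.4% of all genes), though for Lipe only within the low values just described. Between the 2 arrays left out the median was -0.72, against 0.00 for all genes, and all 8 were again lower (47.9% of all genes). Adipoq differed by -2.24 and -0.72, Cidec by -3.02 and -0.73, Retn by -3.72 and -0.73, and Thrsp by -4.94 and -2.88. For Pnpla2 the values were -0.59 and -0.48, and for Lpl -0.86 and -0.54. Lipe ran the other way in size, at -0.69 and -1.53. No test showed that the genotype difference depended on the profile, since the interaction term had limma adjusted p from 0.936 to 0.984 for the 8 genes, with 0.0% of all genes past the threshold and 5.16% at an unadjusted p under 0.05. That term rested on 1 array per genotype in the second profile. With the profile as a block, 7 of the 8 genes had an unadjusted p under 0.05, against 5.34% of all genes lower at that level, and adjusted p from 0.273 to 0.415.

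Single mice stood out within each group. With each gene centred on its own mean over the arrays, the mean of the 8 genes was 0.74, 1.64 and 0.28 in control and -0.87, -1.52 and -0.27 in deficient samples. Control replicate 2, the array with Xist, was highest for 5 of the 8 genes, and 14.7% of all genes had their highest value there. Deficient replicate 2 was lowest for 5 of them, against 18.1% of all genes. Without control replicate 2 the median difference was -1.10, and without deficient replicate 2 it was -1.25. Whether the sex of that control mouse has a part in these levels was not tested.

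Each other gene was also set against Adipoq, a comparison that 3 against 3 arrays cannot take past the threshold. Within each array, Pnpla2 minus Adipoq was at -1.62 ± 0.64 in control and -0.44 ± 0.50 in deficient samples (SD, n = 3 each), a difference of 1.18 with separate groups. An exact two-sided permutation test gave p = 0.10, the smallest that 3 against 3 arrays allow, and 0.35 after Benjamini-Hochberg adjustment over the 7 genes compared. Adipoq itself differed by -1.74 with separate groups and Pnpla2 by -0.55. Any gene that fell by less than Adipoq comes out positive here, so the value is not particular to Pnpla2. The share of all genes with separate groups relative to Adipoq was not computed. Thrsp relative to Adipoq was at -1.48 ± 1.26 in control and -4.00 ± 1.36 in deficient samples, a difference of -2.52 with overlapping groups and an exact permutation p of 0.20. Cidec relative to Adipoq differed by -0.52 and Retn by -0.99, while Fabp4 differed by 0.76, Lpl by 0.98 and Lipe by 0.76, all with overlapping groups. No difference relative to Adipoq passed the test.

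**Figure D3:**
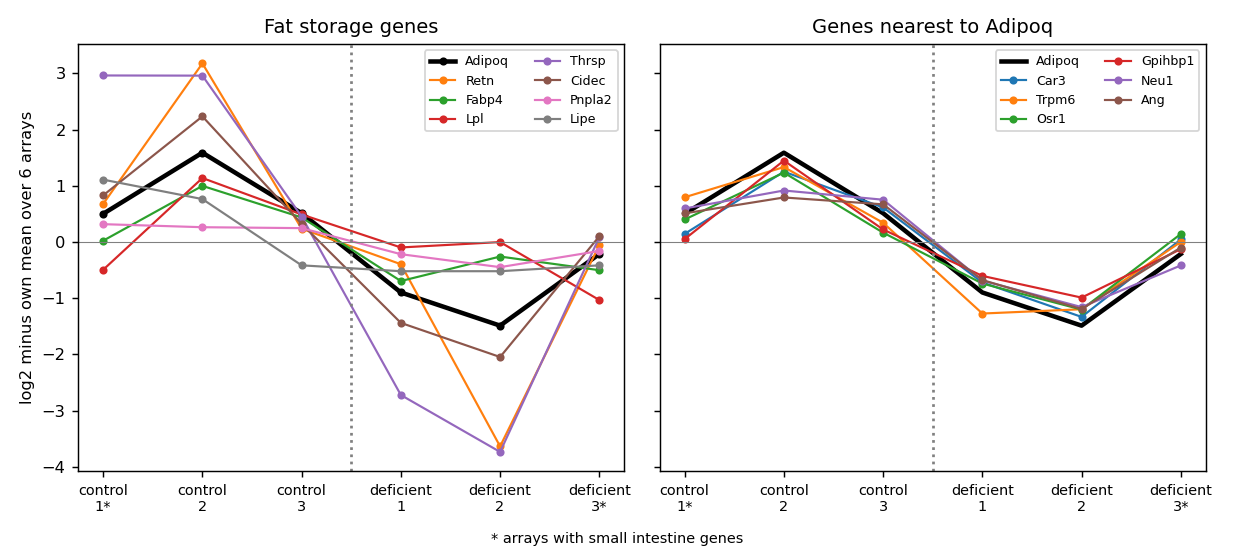
Log2 level minus each gene's own mean over the 6 arrays (vertical axis), by array; asterisks mark the 2 arrays with small intestine genes. Left, the 8 fat storage genes, with Adipoq in black and Thrsp and Retn spanning the widest range; right, Adipoq and its 6 nearest genes, which stay high in control and low in deficient replicates 1 and 2.

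A list of 20 further genes that fat cells use held 13 that passed the filter, 11 of them with a lower deficient mean and 0 past the limma test. Groups were separate and lower for 4 of the 13, against 4.15% of all genes. The median was -0.91, with -1.10 on the 4 arrays without small intestine genes and -0.61 between the 2 with them. Several genes of the list are also made by other cells of the gut. Tmem45b was at 12.39 to 12.84 on all arrays, and Gpd1, an enzyme that makes glycerol phosphate, was at 8.73 and 7.83 on the arrays with small intestine genes against 4.40 to 6.65 on the others, while Pparg was lowest on those 2 arrays. Pck1, which makes the glycerol backbone of triglyceride in fat cells and is also a gene of gut epithelium, read 8.77, 9.52 and 9.40 against 7.55, 5.16 and 5.92, a difference of -3.02. Acvr1c, an activin receptor of fat cells, differed by -1.28 and Car3 by -1.34. These 3 genes had the smallest p of the list, with a limma adjusted p of 0.659, and are among the 4 with separate groups. Adig, a small fat cell protein, missed the filter at 4.34, 5.84 and 3.40 against 3.32, 2.52 and 3.82.

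Lipogenic enzymes, with which Thrsp is usually found, were split. Of 11 genes 8 were lower, with a median of -0.46 (-0.38 on the 4 arrays and -0.75 between the 2) and 0 past the test. Scd1, which puts the double bond into newly made fatty acids, read 12.83, 11.66 and 10.69 in control and 9.15, 9.59 and 9.12 in deficient samples. This difference of -2.44 (SE 0.54) had a limma adjusted p of 0.659. Fasn, the fatty acid synthase, differed by -1.15 with overlapping groups. Scd2, a desaturase of the same family, ran the other way at 0.55, with every deficient sample above every control sample, as for 9.36% of all genes.

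Among the 9 partners of Lpl past the filter, 2 genes of fatty acid entry were lower in every deficient sample, as were 4.15% of all genes. Gpihbp1, the capillary protein that holds Lpl in place, read 5.19, 6.59 and 5.36 against 4.54, 4.15 and 5.01, a difference of -1.15. Cd36, a fatty acid transporter of fat cells, capillaries and macrophages, differed by -1.03, again with separate groups. Slc27a4, a fatty acid transport protein of enterocytes, was at -1.46 with overlapping groups. Of the 9 partners past the filter 7 were lower, with a median of -0.77 and limma adjusted p from 0.667 to 0.960. That median was -0.40 on the 4 arrays without small intestine genes and also -0.40 between the 2 with them. Fabp5, a fatty acid carrier of epithelium and macrophages, was higher at 1.02 with overlapping groups, at 1.73 on the 4 arrays and -0.40 between the 2.

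Genes acting with or on the droplet lipases were lower for 6 of 10, with a median of -0.20 (-0.05 on the 4 arrays and -0.43 between the 2) and 0 past the limma test. Ces1f, a carboxylesterase, was at -1.68 and G0s2, an inhibitor of Pnpla2, at -0.87, both with separate groups (4.15% of all genes were separate and lower). Mgll, which cleaves the last fatty acid, was at -0.83 with overlapping groups. Abhd5, the activator of Pnpla2, differed by -0.14. Enzymes and coat proteins of triglyceride synthesis had a median of -0.25, with 11 of 13 lower, and no gene of that list had separate groups. The median was -0.02 on the 4 arrays without small intestine genes and -0.62 between the 2 with them. Its 3 smallest p-values belonged to Fitm2, a droplet-forming protein, at -0.44, Dgat2, which adds the last fatty acid, at -0.77, and Lpin3, a phosphatase of the same pathway, at -0.68. Several genes of that list followed the tissue profile, among them Dgat1, an enzyme of fat absorption, at 12.19 and 11.40 on the arrays with small intestine genes and 8.04 to 8.72 on the others.

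Regulators of fat cell identity were mixed, with 9 of 13 lower, a median of -0.10 (-0.05 on the 4 arrays and -0.21 between the 2) and 0 past the limma test. Ppargc1a, a coactivator of PPAR gamma, read 6.98, 8.18 and 8.21 against 6.54, 5.23 and 5.86, a difference of -1.92 (SE 0.48, limma adjusted p 0.659). Cebpb and Cebpd, which act early in fat cell formation and also in inflammation, were higher at 1.11 and 1.01, with overlapping groups for Cebpd. In this list 2 genes were separate and higher, Cebpb and Srebf1 (9.36% of all genes). Another 2 were separate and lower, Ppargc1a and Klf5 (4.15% of all genes). Among receptors and relatives of the adipokines 6 of 10 were lower, with a median of -0.10 (-0.38 on the 4 arrays and 0.32 between the 2) and 0 past the test. Adipor2, an adiponectin receptor, was at -0.34, while C3ar1, a complement receptor of myeloid cells, was at 1.21 and C1qtnf1, a relative of adiponectin, at 0.70. Retnlb, the resistin relative of goblet cells, was looked at because of its values: it read 2.32, 11.45 and 12.73 against 14.10, 12.66 and 11.64, so its difference of 3.97 came mainly from control replicate 1.

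**Figure D4:**
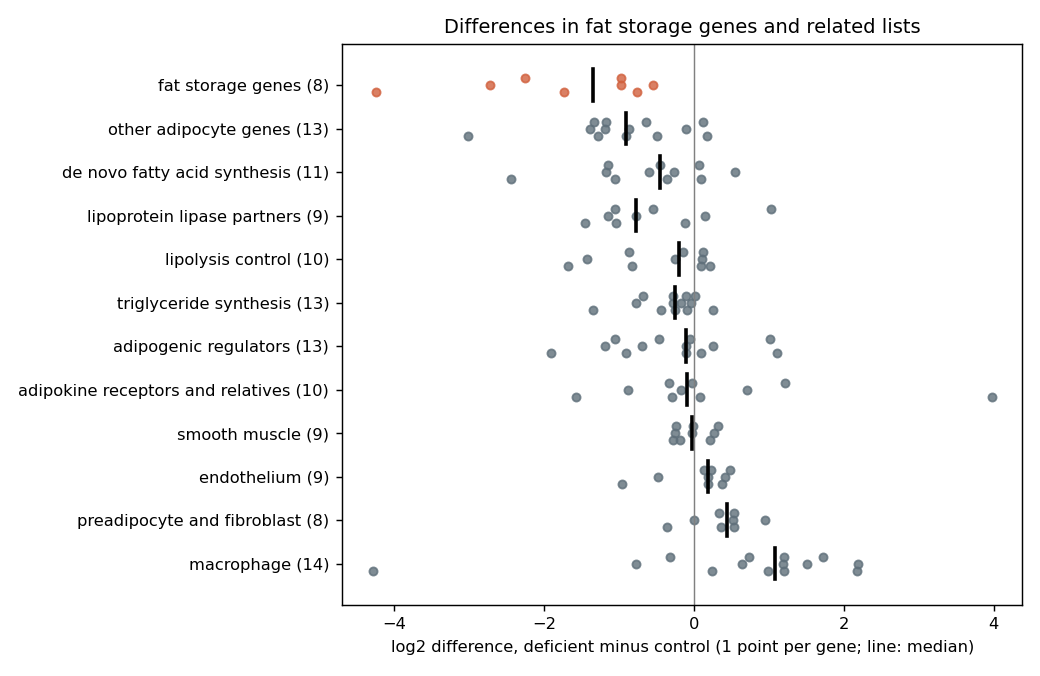
Log2 difference, deficient minus control (horizontal axis), of each gene past the filter, with 1 point per gene, the median as a vertical line and the number of genes in brackets. The 8 fat storage genes all lie under 0 (median -1.35), genes of the further fat cell list have a median of -0.91 and macrophage markers 1.09.

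Marker lists of macrophages and endothelium, which also make some of these proteins, had medians above 0. Of 14 macrophage markers, 11 were higher in deficient samples, with a median of 1.09, and the mean level of the list ran from 7.90 to 8.29 in control and 8.41 to 9.08 in deficient samples. Groups were separate for 6 of the higher markers (9.36% of all genes were separate and higher) and for 2 of the lower (4.15%). The 3 lower ones were Lyz2, the gene in which Cre is inserted, at -4.29, Mertk, a receptor for dying cells, at -0.77 and Cx3cr1, a chemokine receptor, at -0.31. Endothelial markers were higher for 7 of 9, with a median of 0.19 and list levels of 5.71 to 6.34 against 5.68 to 6.75. In that list Cldn5, a junction protein, was at -0.97 with separate groups. Fibroblast and preadipocyte markers had a median of 0.44 with 7 of 8 higher, and smooth muscle markers -0.03 with 3 of 9 higher. On the 4 arrays without small intestine genes the medians were 1.18 for macrophage, 0.34 for endothelial, 0.44 for fibroblast and -0.25 for smooth muscle markers. Between the 2 with them they were 0.78, 0.04, 0.15 and 0.40. Dpp4, a preadipocyte marker here, followed the tissue profile, at 12.49 and 12.47 on the arrays with small intestine genes and 7.26 to 8.10 on the others. Mesothelial markers, from the outer lining of the gut, had a median of 0.26 over 5 genes. It was 0.10 on the 4 arrays without small intestine genes and -0.29 between the 2 with them. Wt1 and Muc16 were at 2.54 to 3.29 on all arrays, while Krt19 stood far above the rest of the list, at 13.79 to 14.21. Whether these levels came from mesothelium was not tested. Markers of the exocrine pancreas, an organ that lies in mesenteric fat, were near the floor for Prss2, Cpa1, Ctrb1 and Cela2a, and 2 passed the filter. Clps, a cofactor of pancreatic lipase, was at -1.97 with overlapping groups over 6 arrays. On the 4 arrays without small intestine genes it was at -2.36 with separate groups, at 9.15 and 8.90 in control and 6.40 and 6.91 in deficient samples, a limma unadjusted p of 0.000685 and an adjusted p of 0.233, and between the 2 with them at -1.17. Its highest values were on those 2 arrays, at 10.70 in control replicate 1 and 9.52 in deficient replicate 3. The latter lay above control replicates 2 and 3. The mean of the fat storage genes was instead highest on control replicate 2. Any part of pancreatic tissue in the difference of the fat storage genes was not tested. Cela1, an elastase and the other marker past the filter, ran the other way at 0.46 with overlapping groups. It was at 0.64 on the 4 arrays, with every deficient sample above every control sample, and at 0.09 between the 2. No gene of these 6 lists passed the limma test. The part of these cells in the lower fat storage genes was not tested.

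The genes most like Adipoq over the 6 arrays were found by the root mean square difference of levels centred per gene. The nearest of all others was Car3, at 0.25 log2 units. Next came Trpm6, a magnesium channel of the intestine and kidney, at 0.27, Osr1, a transcription factor of mesenchyme, at 0.29, and Gpihbp1 at 0.33. Neu1, the lysosomal sialidase, at 0.35 and Ang, a secreted ribonuclease, at 0.37 completed the 6. Among the fat storage genes Cidec was nearest to Adipoq at 0.46, Fabp4 followed at 0.61, and Thrsp was farthest at 1.65. Placed among the genes outside the fat storage list, Cidec ranked 14, Fabp4 72, Lipe 214 and Pnpla2 352. Lpl ranked 1128, Retn 5532 and Thrsp 9772, so many other genes lay nearer to Adipoq than most fat storage genes did. Lpl had other neighbours: Mxd4, a MAX-binding repressor, at 0.13, Phldb1 at 0.14, Txnip, a thioredoxin-binding protein, at 0.17, Gli2, a hedgehog pathway factor, at 0.17, and Tshz1 and Stau2 at 0.18 each. For all 6 the highest array was control replicate 2 and the lowest deficient replicate 3. These distances describe 6 arrays of 2 tissue profiles, and choosing the nearest of 10491 genes makes them small.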

How the data were processed

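Total RNA from whole colon of 6 mice was hybridised to Affymetrix mouse arrays, 1 per mouse. The authors deposited log2 values, 1 per probe set, from GCRMA (per the submitters' processing notes), which models background on probe sequence. Version and settings are not given in the sources used; the log2 scale was read from the values (2.25 to 16.16). Values near the lowest have no reliable order, which compresses differences of weak genes. Of 45101 probe sets, 34958 named 1 gene, and the rest were left out. A probe set was kept when above log2 4 on at least 3 arrays (17031 probe sets), and each of 10491 genes was read from its kept probe set of highest mean. The genotype difference (deficient minus control) was fitted with lmFit and tested two-sided with eBayes (limma 3.58.1, R 4.3.3), without covariates, with Benjamini-Hochberg adjustment over all genes and a threshold of 0.05. Probe sets were also fitted on their own, with adjustment over 17031. Exact permutation tests used scipy 1.17.1. The procedure was tested on simulated data.

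Members, lists and alternatives were chosen with earlier results of these data known. From each list of fat-related genes the 3 with the smallest unadjusted p were named, and for Adipoq and Lpl the 6 nearest genes. This rule was not followed for the marker lists of cell types. Further genes, such as Abhd5, Dgat1, Fabp5, Gpd1, Tmem45b and Retnlb, were named after their values were seen. The replicates are labelled as biological, and 3 arrays per group limit the precision. Alternatives were other filters, normalizations, probe set rules, variance models, blocks, and leaving out arrays. The test of the interaction with tissue profile and the values relative to Adipoq were added after the data were examined.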

Additional observations from a re-analysis of the deposited data

How the results depend on the processing

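Of 141 alternative values of the 8 genes, 39 came from settings that leave the estimate as it is and alter only its test. The other 102, of which 17 equalled the value reported, all kept a lower deficient mean. None of the 141 passed the threshold, with limma adjusted p from 0.0813 (Fabp4 with array weights) to 0.985. The median of the genes, -1.35, lay between -1.67 and -1.10 when 1 array was left out. It reached -2.00 with probe sets ending in _s_at, _x_at or _a_at left out. Fabp4 and Pnpla2, whose kept probe sets all end in _a_at, dropped out there. Between mice with the same replicate number, the correlation of deviations over genes was -0.54, 0.36 and -0.61 for replicates 1, 2 and 3. Replicates 1 and 3 each join an array with small intestine genes to one without, so these values cannot tell whether mice were paired. The replicate number as a block cannot move the median of -1.35 in this balanced design. It left 4 rather than 5 genes with an unadjusted limma p under 0.05 (Cidec went to 0.0626). No member was called under any setting. Over all genes, limma called 0 at an adjusted p under 0.05 (783 at an unadjusted p under 0.05), 1 without suffixed probe sets (Uqcr10) and 2 with array weights (Bhmt2 and Pla2g5). Over single probe sets it called 1 (Uqcr10), 0 with no filter, 0 with the replicate block, 0 without both arrays that carry small intestine genes, and 0 to 3 without 1 array, the 3 being without deficient replicate 3 (Lyz2, Uqcr10 and Rps9). The cause of these shifts was not tested. With 3 arrays per group and some levels near or under log2 4 for Lipe, Retn and Thrsp, the size of their differences is poorly fixed.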
